A study of Mus musculus with 6 samples.

Results

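The genes described here are 48 genes of DNA replication and of the transition out of G1 into S phase, chosen by symbol from the 27179 genes of each comparison table, and all 48 were found and tested in both tables. They comprise 17 genes of origin licensing and firing, 14 of the replication fork, 5 of deoxynucleotide synthesis, 8 transcription factors and cyclins of G1/S, and 4 of chromatin duplication and the S phase checkpoint. They were measured by RNA sequencing in C2C12 cells, an immortalised mouse myoblast line, 48 h after the growth medium had been replaced by medium with horse serum and insulin. Cells stably carrying an shRNA against BAF250A (shBAF250a, 2 libraries) or an shRNA against BRD9 (shBRD9, 2 libraries) were each compared with cells stably carrying a scrambled shRNA that targets no gene (shScr, 2 libraries). SWI/SNF enzymes remodel chromatin and exist in several forms; Arid1a encodes BAF250A, a subunit particular to BAF, and BRD9 is particular to ncBAF. All groups passed through the same differentiation step, and undifferentiated cells were not analysed here. The labels name the groups by their target and call the libraries of a group biological duplicates. The sources used here do not say how many shRNAs or clones stood behind a line.

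Before S phase, the origin recognition complex, CDC6 and CDT1 load the MCM helicase onto origins, and geminin blocks CDT1 afterwards so that each origin fires once per cycle. CDC45 and the GINS proteins turn the loaded helicase into a moving one, and polymerases, the sliding clamp PCNA, its loader RFC and the enzymes that finish the lagging strand copy the DNA. Most of these genes are targets of the E2F transcription factors, which cyclin E with CDK2 releases from the retinoblastoma proteins at the end of G1. Myoblasts have to leave the cell cycle to form myotubes, so these genes are normally shut down as C2C12 cells differentiate.

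The starts of 5 members are shown, because they are the called members with the largest rise (Pcna and E2f7) and the largest fall (Fen1, Ccne1 and E2f2) for which a promoter was listed; Gmnn, the other of the 3 largest rises, is named only. The windows run from 250 bases before to 50 after the start, are taken from RefSeq on GRCm38.p6 and read 5′ to 3′ on the gene's strand. Capitals mark an E2F word (TTTGGCGC, TTTCCCGC, TTTCGCGC or TTTGCCGC) or the NF-Y word CCAAT, on either strand.
Pcna (chr2:132253131-132253430, minus strand): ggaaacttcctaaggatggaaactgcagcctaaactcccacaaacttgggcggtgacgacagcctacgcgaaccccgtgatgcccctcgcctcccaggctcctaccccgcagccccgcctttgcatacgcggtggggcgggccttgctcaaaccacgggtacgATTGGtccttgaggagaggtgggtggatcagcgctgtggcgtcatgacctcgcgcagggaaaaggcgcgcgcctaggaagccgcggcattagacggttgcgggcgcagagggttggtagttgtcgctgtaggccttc
E2f7 (chr10:110745189-110745488, plus strand): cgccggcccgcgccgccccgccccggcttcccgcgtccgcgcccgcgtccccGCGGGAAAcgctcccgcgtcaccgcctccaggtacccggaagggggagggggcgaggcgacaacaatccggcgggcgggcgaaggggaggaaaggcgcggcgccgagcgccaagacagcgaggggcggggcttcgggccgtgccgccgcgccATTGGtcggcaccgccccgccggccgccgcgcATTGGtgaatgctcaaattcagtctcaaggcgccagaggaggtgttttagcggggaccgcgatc
E2f2 (chr4:136172024-136172323, plus strand): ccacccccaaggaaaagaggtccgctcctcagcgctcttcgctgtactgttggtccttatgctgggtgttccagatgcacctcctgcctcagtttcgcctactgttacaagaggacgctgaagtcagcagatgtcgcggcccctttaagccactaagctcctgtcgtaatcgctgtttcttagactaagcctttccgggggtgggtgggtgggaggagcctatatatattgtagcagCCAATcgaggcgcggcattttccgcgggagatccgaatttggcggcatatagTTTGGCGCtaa
Ccne1 (chr7:38107441-38107740, minus strand): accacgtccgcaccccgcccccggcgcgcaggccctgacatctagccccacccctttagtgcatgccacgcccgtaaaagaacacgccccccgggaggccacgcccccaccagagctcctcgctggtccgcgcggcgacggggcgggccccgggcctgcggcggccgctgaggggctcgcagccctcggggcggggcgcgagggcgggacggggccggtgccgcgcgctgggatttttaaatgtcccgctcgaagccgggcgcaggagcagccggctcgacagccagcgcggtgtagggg
Fen1 (chr19:10203872-10204171, minus strand): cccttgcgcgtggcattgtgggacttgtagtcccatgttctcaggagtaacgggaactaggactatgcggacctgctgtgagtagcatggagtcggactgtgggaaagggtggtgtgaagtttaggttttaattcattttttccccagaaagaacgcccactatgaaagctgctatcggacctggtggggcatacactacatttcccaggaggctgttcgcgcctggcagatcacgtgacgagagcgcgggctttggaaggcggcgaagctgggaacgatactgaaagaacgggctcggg
The E2F word of E2f7 lay 198 bases before its start, and that of E2f2 lay 39 bases after it. The windows of Pcna, E2f7 and E2f2 held CCAAT, and those of Ccne1 and Fen1 held none of the 5 words. A promoter was listed for 39 of the 48 members, and 17 of these 39 (43.6%) held at least 1 of the 4 E2F words, against 625 of 27025 promoters in the whole list (2.31%). TTTGGCGC was in 7 member promoters, TTTCCCGC in 8 and TTTCGCGC in 7, whereas TTTGCCGC was in 0. CCAAT was in 24 of the 39 (61.5%), against 37.8% of all promoters. Fen1 and E2f2 each had 2 starts listed, and the start that was not used was not searched here; the Fen1 window lies at the listed start nearest the 5′ end of a GENCODE principal transcript, inside the gene span given for it. These are matches of letters in 1 window per gene and not measured binding.

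Whole reads of each gene in each library were recovered from the authors' deposited means, and a normalized count below is such a read count divided by the size factor of its library in the comparison. The 2 shScr libraries enter both comparisons with the same reads, so the comparisons are not independent of each other, and their normalized counts differ slightly between the 2 scales. Within a group, library 1 is the one with the larger size factor. The size factors were 0.801 and 0.773 with shBAF250a, against 1.58 and 1.09 with shScr in that comparison, and 0.841 and 0.782 with shBRD9, against 1.48 and 1.07 with shScr. Total counts per library were not analysed here. Reads per member ranged from 23 (Ccne2, shBRD9 library 1) to 9234 (Rrm1, shBRD9 library 2). Arid1a had 1365 and 1072 normalized counts with shBAF250a, against 6536 and 3250 with shScr. Brd9 had 197 and 403 normalized counts with shBRD9, against 852 and 1055 with shScr. Of 12 markers of myoblasts and myotubes, 0 were called higher and 10 lower with shBAF250a. With shBRD9, 2 of them were called higher and 1 lower. Of all genes tested, 11.2% were called higher and 17.5% lower with shBAF250a, and 5.11% and 9.33% with shBRD9. The median log2 fold change of these 12 markers was -2.03 with shBAF250a and 0.19 with shBRD9 in the authors' deposited tables. Of 14 markers of blood, endothelial, epithelial, neural, fat and bone cells, 5 were called, all lower, among 7 tested with shBAF250a, and 1 was called higher and 3 lower among 8 tested with shBRD9. The summed normalized counts of the 12 of these 14 markers that could be resolved were 469 and 498 with shBAF250a, against 5238 and 7579 with shScr, and 5035 and 6675 with shBRD9, against 5585 and 7761 with shScr. Tubb3, listed here as a tubulin of neurons, gave most of these sums. Its log2 fold change was -3.71 with shBAF250a and -0.32 with shBRD9 in the authors' deposited tables. Which cells its reads came from was not tested. The markers called lower with shBAF250a were Tubb3, Map2, Cd68, Krt5 and Bglap. With shBRD9, Cd68, Krt5 and Bglap were called lower and Map2 higher. Ptprc, Adgre1 and Epcam, which define blood, macrophage and epithelial cells, were at 0 in all knockdown libraries. They had reads in shScr library 1 and were not tested in either comparison. In the authors' deposited tables their log2 fold changes were -0.86, -0.43 and -0.43 with shBAF250a (SE 1.38, 1.37 and 1.37). With shBRD9 they were -0.75, -0.39 and -0.39 (SE 1.13, 1.11 and 1.11), so a loss of these markers is not shown. The part of the marker changes in the results below was not tested. Of the 48 members 15, 5 called ones among them, share at least 10% of their 31-base words with transcripts of other genes, so a part of their reads is uncertain.

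With shBAF250a, 6 members were higher and 4 lower than with shScr, and 38 were not called (the authors' DESeq2 Wald test, adjusted p below 0.05). Gmnn, Pcna, E2f7, Rfc4, Tyms and Pole2 rose, and Fen1, Ccne1, E2f2 and E2f1 fell. Of all 16450 genes tested in this comparison, 28.7% were called, 11.2% higher and 17.5% lower. The 10 of 48 members called in either direction lay below the share of all genes. By direction, the 4 of 48 called lower lay below the 17.5%, whereas the 6 of 48 called higher did not lie below the 11.2%. With shBRD9, 2 members rose, Gmnn and Pcna, 0 fell, and 46 were not called, against 14.4% called of 17198 genes, 5.11% higher and 9.33% lower. Of the members, 16 with shBAF250a and 5 with shBRD9 had an unadjusted p below 0.05. For all genes tested these shares were 38.1% and 24.1%. In the authors' deposited tables the median log2 fold change over the 48 members was 0.08 with shBAF250a and 0.10 with shBRD9, against -0.18 and -0.15 over all genes tested. The members' log2 fold changes lay on both sides of 0, with 27 positive and 21 negative with shBAF250a and 28 positive and 20 negative with shBRD9. With log2 fold changes centred on the median of all genes, 9 members were called higher and 2 lower with shBAF250a: E2f1 and E2f2 were no longer called and Rrm1, Ccna2 and Gins1 were called higher. In RNA from whole cultures, fewer cells in S phase and less RNA per cell cannot be told apart. The standard errors of the members' log2 fold changes, 0.42 to 0.66 with shBAF250a and 0.50 to 0.73 with shBRD9, limit what could be called: the smallest log2 fold change called for any gene was 1.02 in size with shBAF250a and 1.29 with shBRD9 in the authors' deposited tables.

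**Figure D1:**
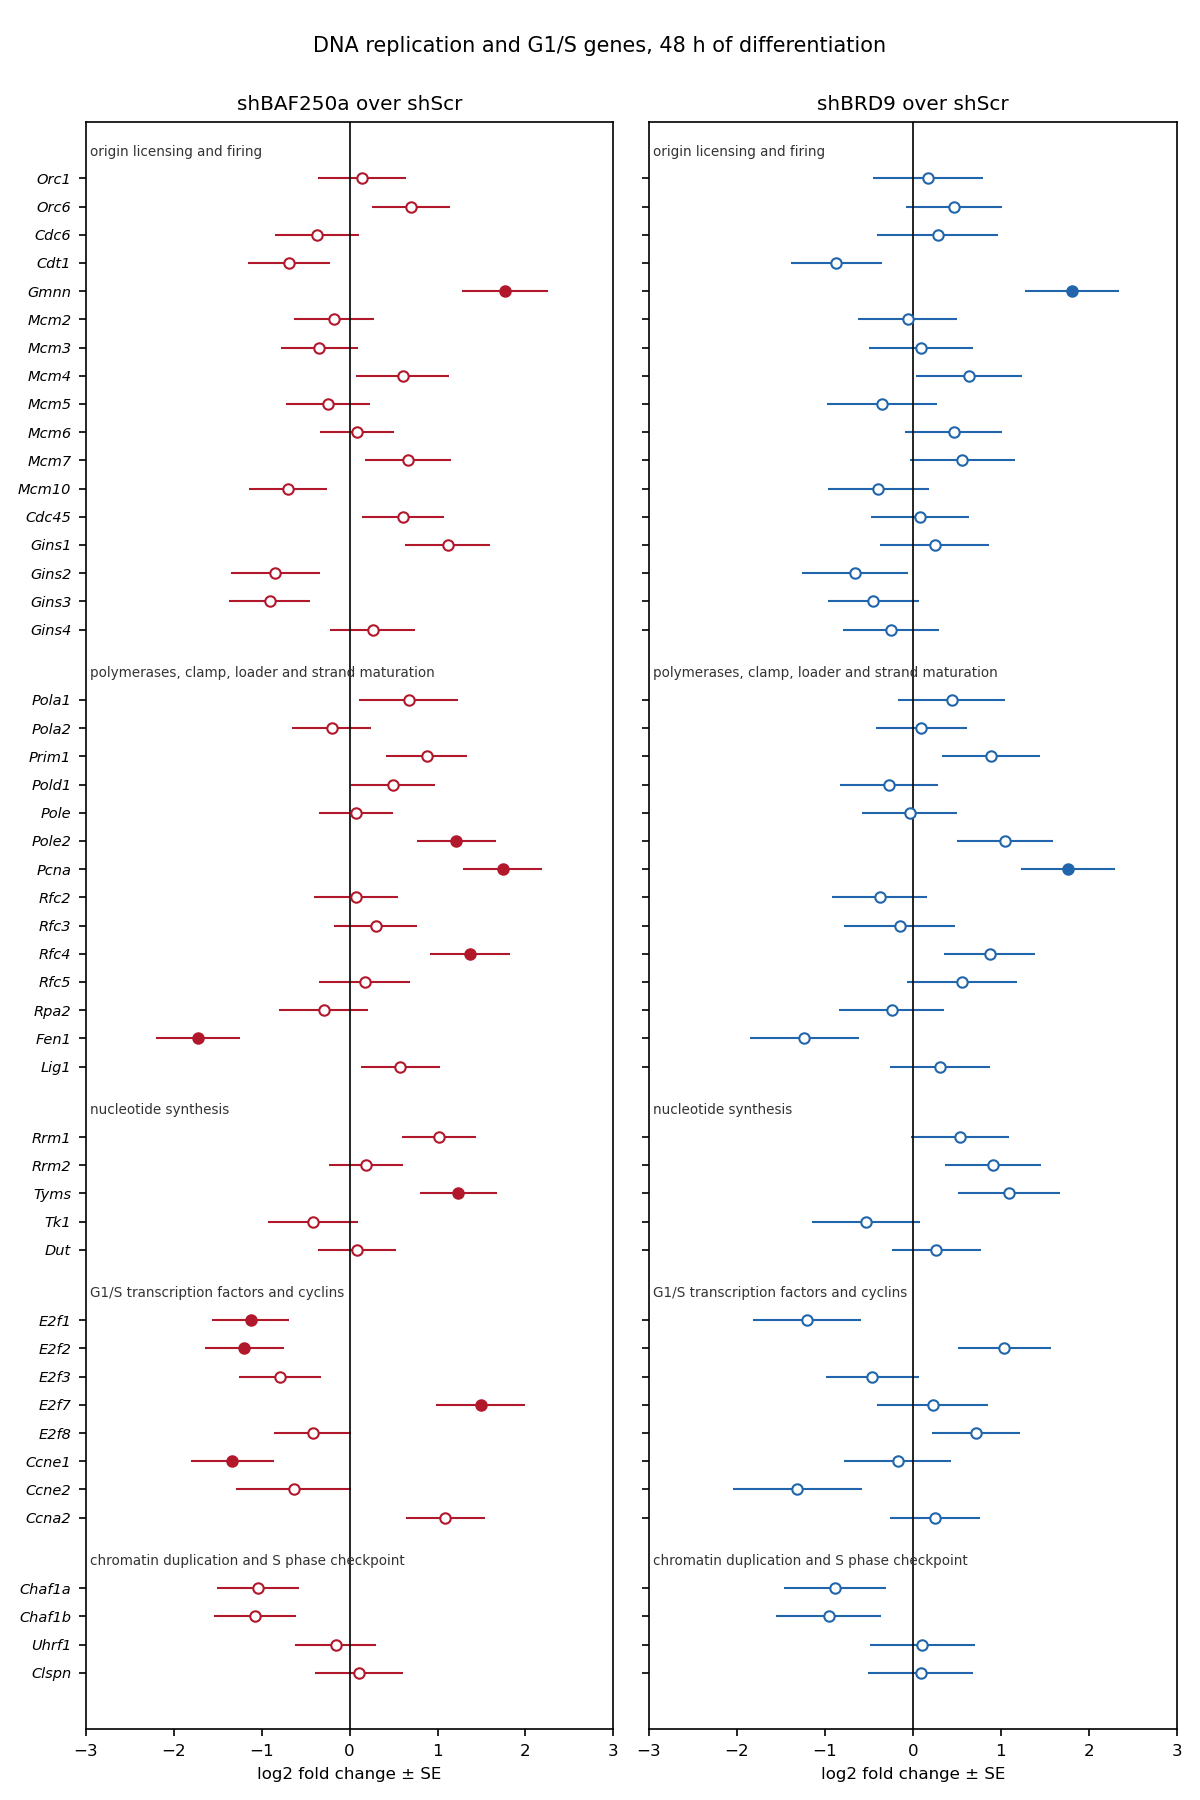
Log2 fold changes of the 48 members (points) with their standard errors (bars) as the authors deposited them, for shBAF250a over shScr (left) and shBRD9 over shScr (right), grouped by role. Filled points are called at an adjusted p below 0.05: 10 members with shBAF250a and 2 with shBRD9, with Gmnn and Pcna filled on both sides.

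The counts by role that follow stand beside 28.7% of all genes called with shBAF250a and 14.4% with shBRD9. For an unadjusted p below 0.05 these shares were 38.1% and 24.1%. Among the 17 genes of origin licensing and firing, 1 was called with either knockdown, and it was the inhibitor of licensing. Gmnn, which encodes geminin (chr13:24751845-24761937, GRCm38), had 436 and 343 normalized counts with shBAF250a, against 93.3 and 128 with shScr. It had 348 and 505 normalized counts with shBRD9, against 99.5 and 131 with shScr. All 4 knockdown libraries lay above both shScr libraries. Its mean was 389 ± 65.6 with shBAF250a, against 111 ± 24.5 with shScr, and 427 ± 111 with shBRD9, against 115 ± 22.3 with shScr (SD, n = 2 each). The log2 fold change was 1.77 (SE 0.49, adjusted p 0.00201) with shBAF250a in the authors' deposited table. It was 1.81 (SE 0.54, adjusted p 0.00785) with shBRD9 in the authors' deposited table. The difference between the knockdowns was -0.04 (SE 0.73). Cdt1, the licensing factor that geminin binds, had 1788 and 2158 normalized counts with shBAF250a, against 2277 and 4163 with shScr. It had 1449 and 2125 with shBRD9, against 2428 and 4263 with shScr. All 4 knockdown libraries lay below both shScr libraries, although Cdt1 was not called (log2 fold changes of -0.69 and -0.87 in the authors' deposited tables, adjusted p 0.276 and 0.308).

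None of the 6 genes of the MCM2 to MCM7 helicase was called in either comparison by the DESeq2 Wald test, and 0 had an unadjusted p below 0.05. Their log2 fold changes in the authors' deposited tables ran from -0.34 (Mcm3) to 0.67 (Mcm7) with shBAF250a and from -0.35 (Mcm5) to 0.64 (Mcm4) with shBRD9. Mcm7 had 5138 and 6092 normalized counts with shBAF250a, against 2150 and 4828 with shScr, so these groups did not overlap. With shBRD9 it had 2812 and 8107, against 2293 and 4943 with shScr. Mcm7 shares 33.4% of its 31-base words with transcripts of other genes, 24.4% with a processed pseudogene, Gm5487. Mcm4 had 2129 and 2210 normalized counts with shBAF250a, against 2093 and 729 with shScr, and its adjusted p was 0.423 in the authors' deposited table. Of the 4 GINS subunits, Gins1 had 306 and 277 normalized counts with shBAF250a, against 123 and 141 with shScr. Its log2 fold change of 1.12 had an adjusted p of 0.0679 in the authors' deposited table. Gins3 was not called and had lower values in all knockdown libraries, at 307 and 261 normalized counts with shBAF250a, against 601 and 481 with shScr, and 333 and 487 with shBRD9, against 640 and 492 with shScr. Gins2 had a log2 fold change of -0.84 with shBAF250a and -0.66 with shBRD9 in the authors' deposited tables. Gins2 shares 66.2% of its 31-base words with transcripts of other genes, so a large part of its reads is uncertain. Orc1, Orc6, Cdc6, Mcm10, Cdc45 and Gins4, which recognise origins or load and start the helicase, had log2 fold changes from -0.70 (Mcm10) to 0.70 (Orc6) with shBAF250a and from -0.39 (Mcm10) to 0.47 (Orc6) with shBRD9 in the authors' deposited tables. The median over the 17 was 0.08 with shBAF250a and 0.09 with shBRD9.

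Of the 14 genes of the fork, 3 rose and 1 fell with shBAF250a, and 1 rose and 0 fell with shBRD9, where 2 had an unadjusted p below 0.05. Pcna, the sliding clamp that tethers the polymerases (chr2:132249286-132253180), had 2560 and 2290 normalized counts with shBAF250a, against 862 and 548 with shScr. With shBRD9 it had 1871 and 3421 normalized counts, against 919 and 562 with shScr. The lowest knockdown library was above the highest shScr library in both comparisons, with means of 2425 ± 191 with shBAF250a, against 705 ± 222 with shScr, and 2646 ± 1096 with shBRD9, against 740 ± 253 with shScr (SD, n = 2 each). Its log2 fold change was 1.74 (SE 0.45, adjusted p 0.000822) with shBAF250a in the authors' deposited table. It was 1.76 (SE 0.53, adjusted p 0.00933) with shBRD9 in the authors' deposited table, and the difference between the knockdowns was -0.02 (SE 0.70). Pcna shares 23.3% of its 31-base words with a processed pseudogene, Pcna-ps2, so a part of its reads is uncertain.

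Fen1, the flap endonuclease that trims Okazaki fragments (chr19:10199132-10204393), moved against Pcna. It had 968 and 1019 normalized counts with shBAF250a, against 2249 and 4536 with shScr. With shBRD9 it had 621 and 2224, against 2399 and 4645 with shScr. All knockdown libraries were below both shScr libraries, but shBRD9 library 2 came close to shScr library 1. The log2 fold change was -1.73 (SE 0.48, adjusted p 0.00193) with shBAF250a in the authors' deposited table. With shBRD9 it was -1.23 (SE 0.62, adjusted p 0.195) in the authors' deposited table and was not called. Fen1 shares 76.8% of its words with an annotated antisense gene, Gm10143, and the sources used here do not say whether the counting used strand, so reads of the 2 genes cannot be told apart.

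Rfc4 and Pole2, a subunit of the clamp loader and the small subunit of polymerase epsilon, rose with shBAF250a. Rfc4 (chr16:23113948-23127730) had 614 and 510 normalized counts with shBAF250a, against 220 and 206 with shScr, and 348 and 487 with shBRD9, against 234 and 211 with shScr. Pole2 (chr12:69201773-69228205) had 567 and 578 normalized counts with shBAF250a, against 225 and 259 with shScr, and 353 and 727 with shBRD9, against 240 and 265 with shScr. For both genes all 4 knockdown libraries lay above the shScr libraries. With shBAF250a the log2 fold changes were 1.37 (SE 0.46, adjusted p 0.0131) for Rfc4 and 1.21 (SE 0.45, adjusted p 0.0293) for Pole2 in the authors' deposited table. With shBRD9 they were 0.87 (adjusted p 0.309) and 1.05 (adjusted p 0.224) in the authors' deposited table, and neither difference between the knockdowns was called. Rfc4 shares 10.5% and Pole2 11.0% of their words with transcripts of other genes. Prim1, the primase that starts each strand, also had all 4 knockdown libraries above shScr without a call, at 775 and 701 normalized counts with shBAF250a, against 475 and 317 with shScr, and 516 and 1071 with shBRD9, against 506 and 325 with shScr. The other 9 genes of the fork, which include the large subunits of polymerases alpha, delta and epsilon (Pola1, Pold1 and Pole), the ligase Lig1 and Rpa2 of the single-strand binding protein, had log2 fold changes from -0.30 (Rpa2) to 0.67 (Pola1) with shBAF250a and from -0.38 (Rfc2) to 0.56 (Rfc5) with shBRD9 in the authors' deposited tables. Of the clamp loader, Rfc4 rose with shBAF250a, and Rfc2, Rfc3 and Rfc5 had log2 fold changes of 0.07, 0.29 and 0.17 in the authors' deposited table; whether subunits differ from each other was not tested.

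Among the 5 genes of deoxynucleotide synthesis, Tyms, the thymidylate synthase (chr5:30038546-30073645), rose with shBAF250a. It had 1409 and 1261 normalized counts with shBAF250a, against 610 and 503 with shScr, and 654 and 1926 with shBRD9, against 651 and 515 with shScr. The lower shBRD9 library was level with the higher shScr library, whereas both shBAF250a libraries were well above. The log2 fold change was 1.24 (SE 0.44, adjusted p 0.0200) with shBAF250a and 1.09 (SE 0.58, adjusted p 0.233) with shBRD9 in the authors' deposited tables. Tyms shares 11.4% of its words with transcripts of other genes, a pseudogene Tyms-ps among them. Rrm1, the large subunit of ribonucleotide reductase, had 9818 and 11706 normalized counts with shBAF250a, against 5251 and 5252 with shScr. These did not overlap, but the adjusted p was 0.0532 in the authors' deposited table. With shBRD9, Rrm1 had 4392 and 11804 normalized counts, on either side of 5599 and 5377 with shScr. Its partner subunit Rrm2 had 3552 and 4052 normalized counts with shBAF250a, against 3626 and 3034 with shScr, and 3959 and 9521 with shBRD9, against 3866 and 3107 with shScr. Tk1, the thymidine kinase of the salvage route, had 2970 and 3243 normalized counts with shBAF250a, against 2303 and 6088 with shScr, and 1560 and 4319 with shBRD9, against 2455 and 6234 with shScr. Dut, which breaks down dUTP, had a log2 fold change of 0.08 with shBAF250a and 0.27 with shBRD9 in the authors' deposited tables. None of these 5 genes was called with shBRD9 by the DESeq2 Wald test, and 0 of them had an unadjusted p below 0.05 there.

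Of the 8 regulators of G1/S, 4 were called with shBAF250a by the DESeq2 Wald test, 1 higher and 3 lower, against 28.7% of all genes. With shBRD9, 0 were called, against 14.4%, and 2 had an unadjusted p below 0.05 in that test, against 24.1%. Only 1 of the 8, E2f2, was called in the difference between the knockdowns. E2f1, an activator E2F (chr2:154559400-154569892), had 1696 and 1833 normalized counts with shBAF250a, against 3134 and 4697 with shScr. It had 679 and 2683 with shBRD9, against 3342 and 4809 with shScr. All knockdown libraries were below shScr, and the log2 fold change was -1.13 (SE 0.44, adjusted p 0.0397) with shBAF250a and -1.21 (SE 0.61, adjusted p 0.204) with shBRD9 in the authors' deposited tables.

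E2f2, also an activator (chr4:136172274-136196057), lay on opposite sides of shScr in the 2 lines. It had 864 and 755 normalized counts with shBAF250a, against 1523 and 2258 with shScr. It had 5500 and 2851 normalized counts with shBRD9, against 1624 and 2312 with shScr. Both shBAF250a libraries were below and both shBRD9 libraries above the shScr libraries. The means were 810 ± 76.5 with shBAF250a, against 1890 ± 520 with shScr, and 4175 ± 1873 with shBRD9, against 1968 ± 486 with shScr (SD, n = 2 each). In the authors' deposited tables the log2 fold change was -1.20 (SE 0.45, adjusted p 0.0298) with shBAF250a and 1.04 (SE 0.53, adjusted p 0.200) with shBRD9. The difference between the log2 fold changes, shBAF250a minus shBRD9, was -2.24 (SE 0.69), with an adjusted p of 0.0472 in a two-sided normal test with Benjamini-Hochberg adjustment over 16311 genes. E2f2 was the 1 member called in this difference, in which 2.54% of all genes were called, 0.552% higher and 1.99% lower with shBAF250a, and 0 other members had an unadjusted p below 0.05, against 8.35% of all genes. The call was near the threshold, since the largest unadjusted p called was 0.00126 and that of E2f2 was 0.00118. Leaving out a library ended the call for 5 of the 6 libraries, with the highest unadjusted p, 0.0280, and a difference of -1.70 without shBRD9 library 1, and kept it without shBRD9 library 2 (difference -2.59). The call also ended with no filter on low values, among genes with means of 100 or more, and with centred log2 fold changes.

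**Figure D2:**
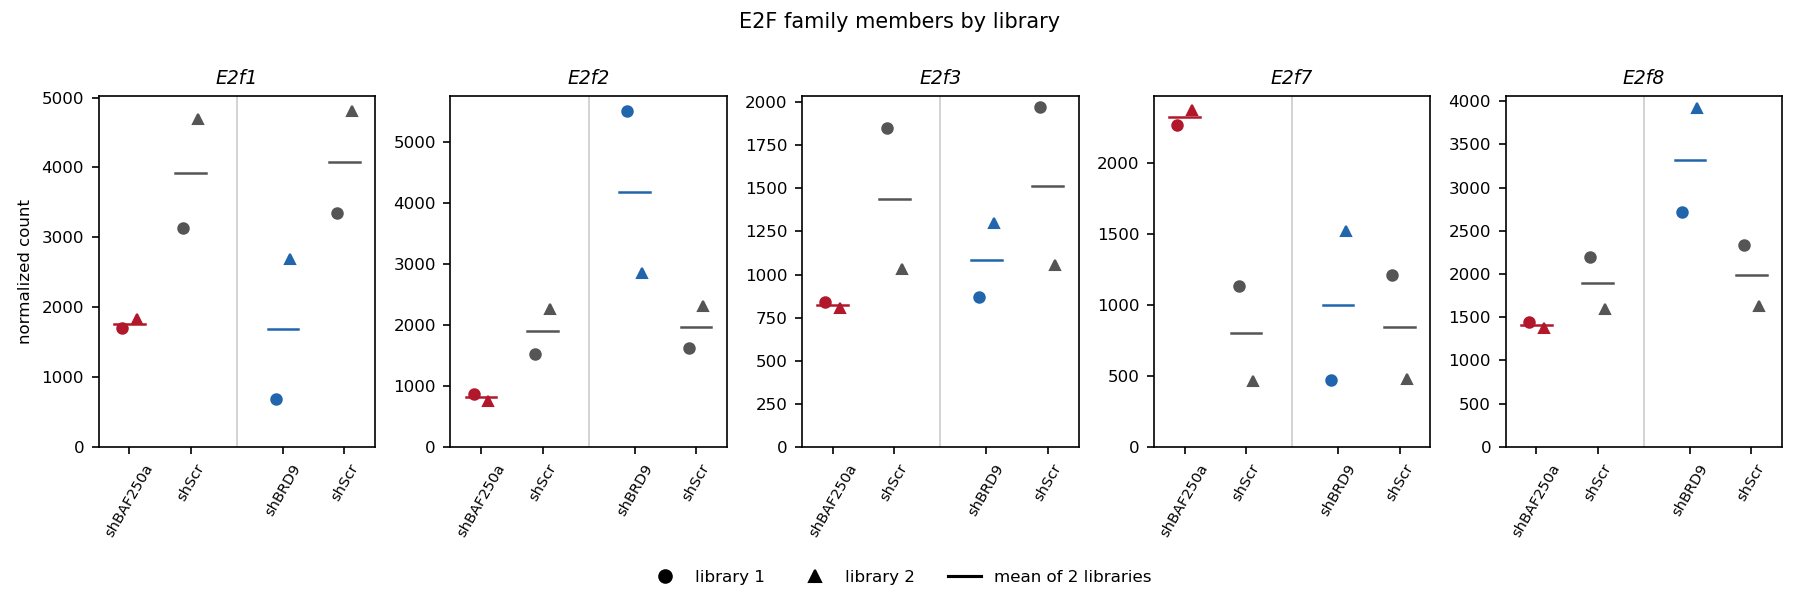
Normalized counts of the 5 E2F genes among the members in each library; within each panel shBAF250a stands left of shScr in the first comparison and shBRD9 left of shScr in the second, circles are library 1, triangles library 2 and bars the mean of 2 libraries. E2f2 lies at 864 and 755 with shBAF250a and at 5500 and 2851 with shBRD9, on opposite sides of the shScr libraries.

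E2f8, a repressor E2F, also had both shBAF250a libraries below and both shBRD9 libraries above the shScr libraries, but within shBRD9 and within shScr the other library was the higher one than for E2f2. It had 1443 and 1371 normalized counts with shBAF250a, against 2195 and 1589 with shScr, and 2713 and 3926 with shBRD9, against 2340 and 1627 with shScr. It was not called in either comparison, and the difference of -1.13 (SE 0.66) had an adjusted p of 0.798 in the same normal test. Both shBAF250a libraries lower and both shBRD9 libraries higher than shScr was seen in 2 of the 48 members, against 1.85% of 1083 genes in a systematic sample of every 10th tested gene. E2f7, the other repressor (chr10:110745439-110787384), rose with shBAF250a. It had 2268 and 2371 normalized counts with shBAF250a, against 1135 and 466 with shScr, and 468 and 1522 with shBRD9, against 1210 and 477 with shScr. Both shBAF250a libraries were above all the others, whereas the shBRD9 libraries spanned the shScr ones. The log2 fold change was 1.49 (SE 0.50, adjusted p 0.0143) with shBAF250a and 0.22 (SE 0.63, adjusted p 0.879) with shBRD9 in the authors' deposited tables, and their difference of 1.27 (SE 0.81) had an adjusted p of 0.901. E2f3 had 840 and 807 normalized counts with shBAF250a, against 1852 and 1029 with shScr, without a call (adjusted p 0.205 in the authors' deposited table).

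Of the 3 cyclins, 1 was called, and with shBAF250a. Ccne1, cyclin E1, which drives entry into S phase (chr7:38097984-38107490), had 592 and 590 normalized counts with shBAF250a, against 1081 and 1971 with shScr. It had 623 and 2171 with shBRD9, against 1152 and 2018 with shScr. Both shBAF250a libraries were below shScr, whereas the shBRD9 libraries fell on either side. Its log2 fold change was -1.34 (SE 0.47, adjusted p 0.0198) with shBAF250a and -0.17 (SE 0.61, adjusted p 0.905) with shBRD9 in the authors' deposited tables. Ccna2, cyclin A2 of S phase and G2, had 5730 and 5849 normalized counts with shBAF250a, against 3353 and 2013 with shScr, a separation that missed the threshold (log2 fold change 1.08, adjusted p 0.0538 in the authors' deposited table). Ccne2, cyclin E2, was the member with the fewest reads, at 78.6 and 66.0 normalized counts with shBAF250a, against 178 and 51.2 with shScr, and 27.3 and 62.6 with shBRD9, against 190 and 52.4 with shScr. Its 2 shScr libraries differed by 3.43-fold, and neither comparison was called.

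**Figure D3:**
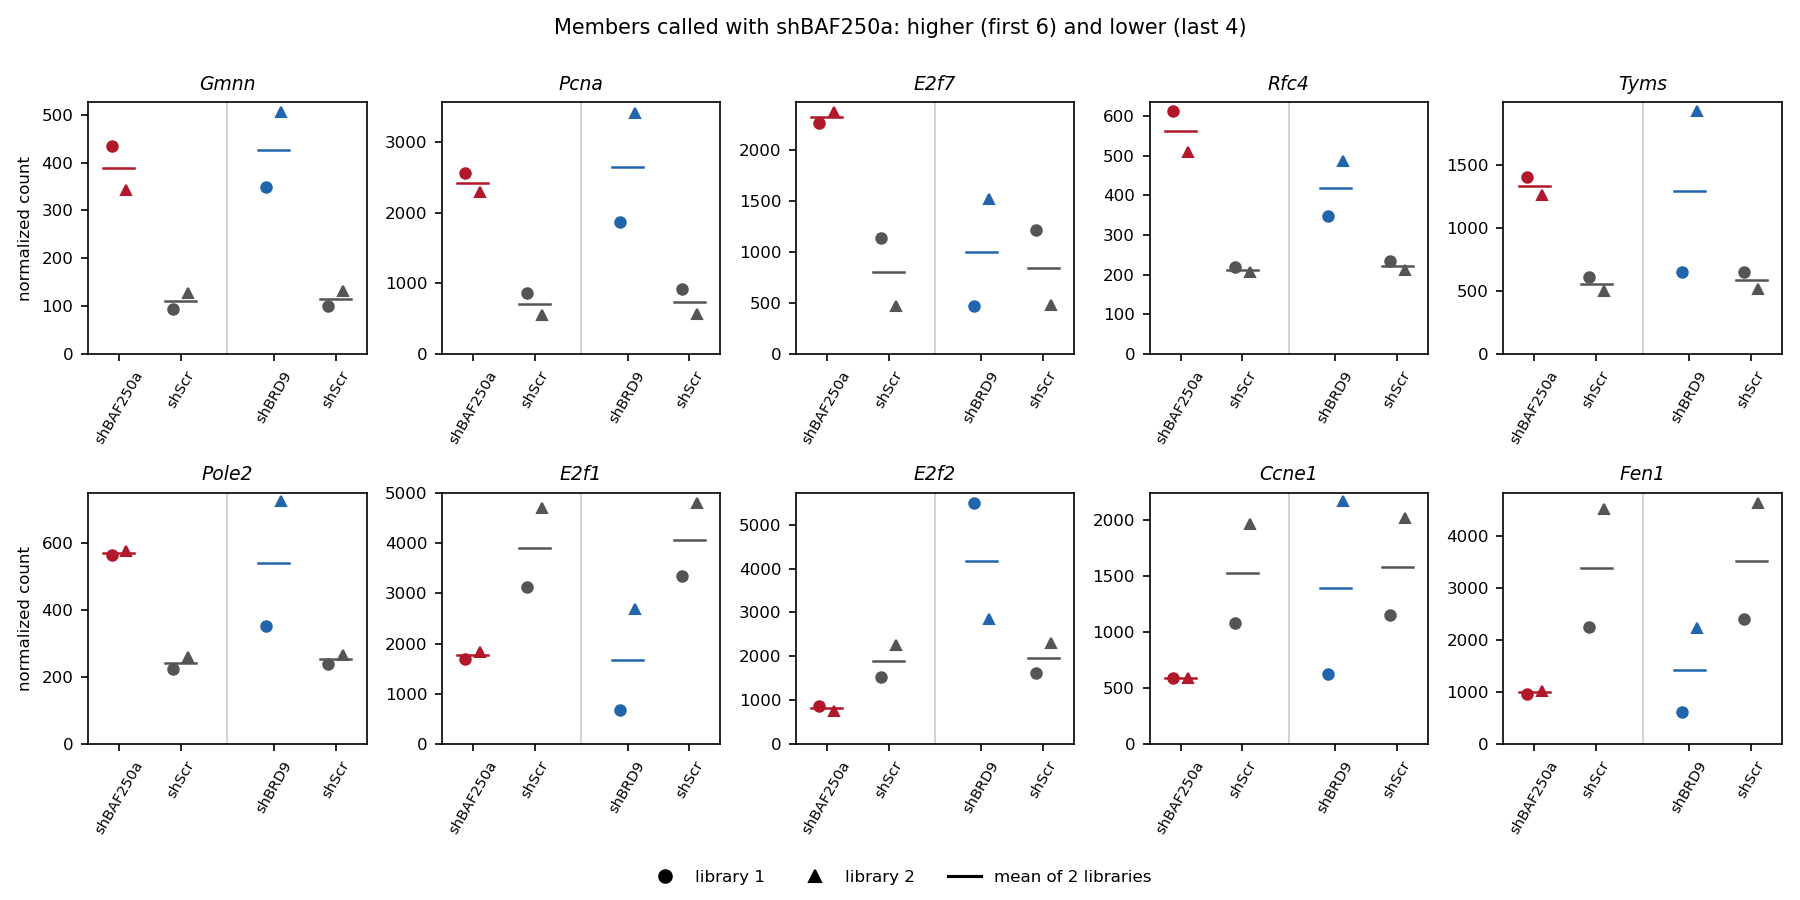
Normalized counts in each library of the 10 members called with shBAF250a, with the groups and symbols arranged as for the E2F genes. The 2 shBAF250a libraries lie closer together than the 2 shBRD9 libraries in every panel, with Pcna at 1871 and 3421 and E2f1 at 679 and 2683 with shBRD9.

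The 4 genes of chromatin duplication and the checkpoint held 0 calls in either comparison by the DESeq2 Wald test, with 2 at an unadjusted p below 0.05 with shBAF250a and 0 with shBRD9. Those 2 were Chaf1a and Chaf1b, subunits of the CAF-1 chaperone that places histones behind the fork. Chaf1a had 2097 and 2376 normalized counts with shBAF250a, against 3231 and 6124 with shScr, and 1380 and 3717 with shBRD9, against 3445 and 6270 with shScr. Chaf1b had 1166 and 1322 normalized counts with shBAF250a, against 1854 and 3497 with shScr, and 682 and 2076 with shBRD9, against 1977 and 3580 with shScr. Both shBAF250a libraries were lower than shScr for each gene, and the log2 fold changes were -1.04 (adjusted p 0.0803) and -1.08 (adjusted p 0.0694) in the authors' deposited table. Chaf1a shares 51.0% and Uhrf1 24.2% of their words with transcripts of other genes. Uhrf1, which carries DNA methylation through replication, and Clspn, the checkpoint mediator claspin, had log2 fold changes of -0.16 and 0.11 with shBAF250a and 0.11 and 0.09 with shBRD9 in the authors' deposited tables.

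Taken by library rather than by test, the groups did not overlap for 16 members higher and 12 lower with shBAF250a than with shScr, against 31.9% and 30.5% of the systematic sample. With shBRD9 these counts were 9 higher and 4 lower, against 23.4% and 22.3% of the sample. All 4 knockdown libraries were above both shScr libraries for 6 members (Gmnn, Prim1, Pole2, Pcna, Rfc4 and Tyms), which is 12.5% of the members and 16.4% of the sample. They were below both for 4 members (Cdt1, Gins3, Fen1 and E2f1), which is 8.33% of the members and 16.8% of the sample. Between the knockdowns, each taken relative to the shScr mean of its comparison, 10 members were higher and 4 lower with shBAF250a than with shBRD9 without overlap, against 32.3% and 27.1% of the sample.

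The members differed far more between the 2 shBRD9 libraries than between the 2 shBAF250a libraries. In shBRD9, library 2 was above library 1 for 47 of 48 members, with a median ratio of 2.44-fold, and it was above by at least 2-fold for 34 members (70.8%), against 6.09% of the systematic sample. The sample's median ratio was 1.02-fold, which division by size factors tends to set near 1, so the offset was relative to the typical gene. It was widest for Cdc6, at 169 and 1117 normalized counts in the 2 shBRD9 libraries, and for Rfc3, Mcm5 and E2f1, at 3.97, 3.95 and 3.95-fold. All 17 licensing genes, all 14 fork genes, all 5 nucleotide genes and all 4 chromatin genes were higher in library 2, and E2f2 was the member higher in library 1, at 5500 against 2851. By at least 2-fold, 0 members were higher in library 1, against 8.22% of the sample. Between the shBAF250a libraries 0 members differed by 2-fold, against 0.554% and 1.29% of the sample higher in library 2 and in library 1. The median size of the ratio there was 1.11-fold, close to the 1.12-fold of the sample. Between the shScr libraries 9 members were at least 2-fold higher in library 2 and 5 in library 1, against 16.5% and 23.7% of the sample.

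**Figure D4:**
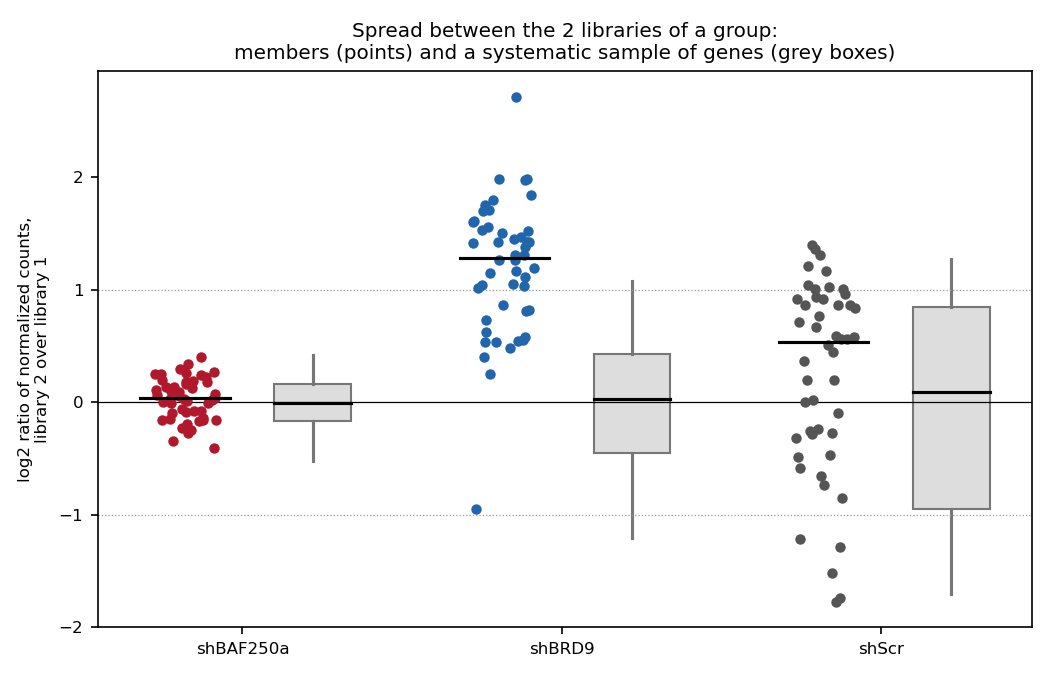
Log2 ratio of normalized counts of library 2 over library 1 in each group, for the 48 members (points, with the median as a bar) and for 1083 genes of the systematic sample (box from the 25th to the 75th percentile with the median, whiskers from the 5th to the 95th percentile). The members sit at a median of 1.29 in shBRD9, against 0.04 in shBAF250a and 0.53 in shScr, while the sample is centred near 0 in each group.

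Results with shBRD9 therefore rest on which of its libraries is used. Without library 1 the median log2 fold change of the members was 0.52 and 2 were called, Gmnn and Pcna. Without library 2 the median was -0.69 and 2 other members were called, Fen1 and E2f1, both lower, while Gmnn and Pcna were lost. These refits used the recovered reads with the dispersion of each gene held, so a lone library is assumed to vary like the others. With shBAF250a, 4 members were called without library 1 and 5 without library 2, and the median stayed at 0.09 and 0.07. Without shScr library 1 there were 13 members called with shBAF250a (7 higher, 6 lower), and without shScr library 2 there were 2, Gmnn and Pcna. Without shScr library 1, shBRD9 kept Pcna and lost Gmnn, and without shScr library 2 it kept Gmnn and lost Pcna. Gmnn and Pcna were called with shBAF250a in each of these 4 refits.

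The step between the 2 shScr libraries moved with transcript length. Over 1002 genes of the sample with a known length, the log2 ratio of shScr library 2 over library 1 had a Pearson r of -0.53 and a Spearman rho of -0.54 with the log10 length of the longest coding transcript. Over the 48 members the values were -0.25 and -0.22. These are descriptions across genes that share the same 2 libraries. Among the 16 shortest members (1087 to 2189 bases) the median ratio was 1.60-fold in favour of library 2, and among the 16 longest (3586 to 7163 bases) it was 1.01-fold. Tk1 and Rpa2, of 1440 and 1813 bases, were 2.64-fold and 2.48-fold higher in shScr library 2. Pola1, Mcm4 and E2f7, of 5346, 3589 and 5473 bases, were 3.34-fold, 2.87-fold and 2.43-fold higher in shScr library 1. Other members went against this: Pcna and Prim1, of 1518 and 1583 bases, were higher in library 1, Pcna by 1.57-fold, and Gins2, of 3900 bases, was 2.31-fold higher in library 2. Of the 16 longest members 9 were higher in library 2, and of the 16 shortest 12 were. In the shBAF250a libraries the r was 0.38 for the members, against 0.03 for the sample, so the members' value there was larger in size than in shScr and of the other sign. In the shBRD9 libraries it was 0.03 for the members, against -0.22 for the sample. The part of this length pattern in the members' fold changes was not tested.

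**Figure D5:**
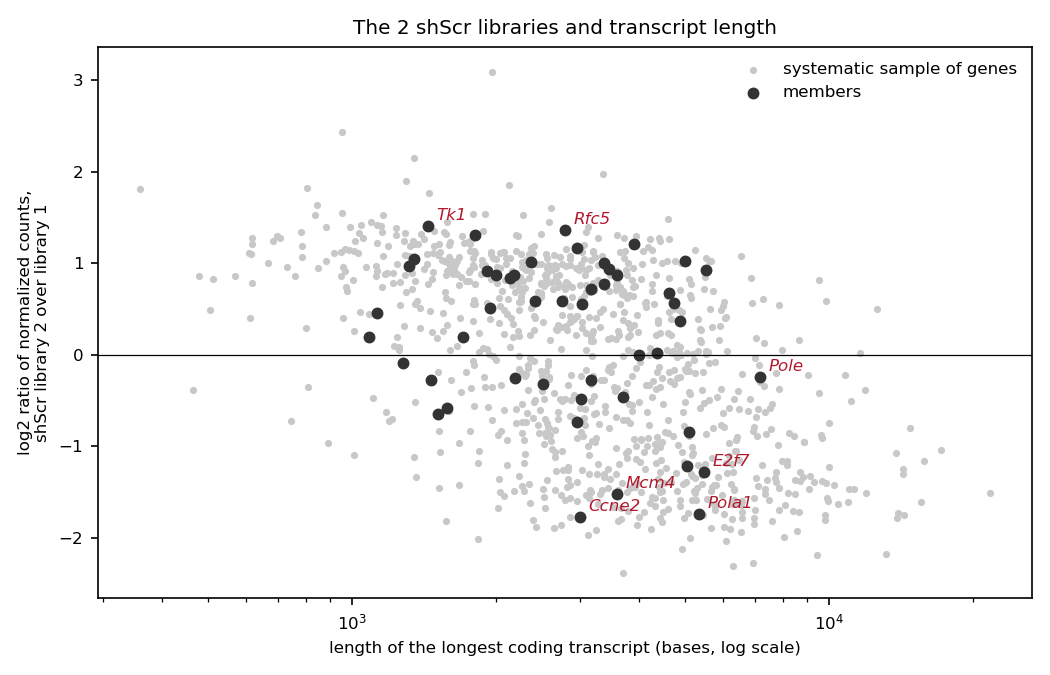
Log2 ratio of normalized counts of shScr library 2 over shScr library 1 against the length of the longest coding transcript (log scale), for the members (dark points) and 1002 genes of the systematic sample (grey points). Tk1 lies at 1.40 and Pola1 at -1.74, and the grey points run from above 0 at short lengths to below 0 at long ones.

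Among the lists of genes that act with the members, the share called ran from 0 of 14 licensing and firing genes to 2 of 6 CDK inhibitors with shBAF250a, against 28.7% of all genes tested, and from 0 of 14 to 1 of 5 with shBRD9, against 14.4%. Of 14 other licensing and firing genes, 0 were called with either knockdown by the DESeq2 Wald test, with 1 at an unadjusted p below 0.05 with shBAF250a and 0 with shBRD9. Of 24 other fork genes, 2 rose with shBAF250a, Rpa3 and Rnaseh2a, and 1 with shBRD9, Rpa3. Rpa3, the small subunit of the single-strand binding protein, had 599 and 342 normalized counts with shBAF250a, against 115 and 84.1 with shScr, and 371 and 391 with shBRD9, against 123 and 86.1 with shScr. Its log2 fold change was 2.17 (adjusted p 0.000176) with shBAF250a and 1.79 (adjusted p 0.00834) with shBRD9 in the authors' deposited tables, whereas Rpa2 of the same complex was at -0.30 and -0.24. Rnaseh2a, the catalytic subunit of ribonuclease H2, had a log2 fold change of 1.21 (adjusted p 0.0481) with shBAF250a in the authors' deposited table. Rpa3 shares 13.3% and Rnaseh2a 19.0% of their words with transcripts of other genes, against 0.438% for Rpa2. Of 18 other nucleotide synthesis genes, 3 rose and 2 fell with shBAF250a, and 2 rose and 0 fell with shBRD9, where 4 had an unadjusted p below 0.05.

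Impdh2, the rate-limiting enzyme of guanine nucleotide synthesis, had the largest change of these lists outside the CDK inhibitors and the markers. It had 7023 and 7838 normalized counts with shBAF250a, against 282 and 579 with shScr, and 4944 and 8916 with shBRD9, against 301 and 593 with shScr. The log2 fold change was 4.01 (adjusted p 1.73e-15) with shBAF250a and 3.78 (adjusted p 1.57e-10) with shBRD9 in the authors' deposited tables. Impdh2 shares 43.7% of its words with transcripts of other genes, a pseudogene Impdh2-ps among them. Paics of purine synthesis also rose with both, by a log2 fold change of 1.65 and 1.45 in the authors' deposited tables. Ctps, the CTP synthase, rose with shBAF250a (1.93), and Nme1 fell (-1.87), in the authors' deposited table. Paics shares 16.7% and Nme1 11.8% of their words with transcripts of other genes.

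Among 23 genes of the retinoblastoma, E2F and cyclin D circuit, 3 rose and 0 fell with shBAF250a, where 5 had an unadjusted p below 0.05, and 2 rose and 0 fell with shBRD9, also with 5. Tfdp1, a DNA-binding partner of E2F proteins such as E2F1, had 2203 and 2098 normalized counts with shBAF250a, against 703 and 342 with shScr. With shBRD9 it had 2415 and 3711, against 750 and 350 with shScr. It rose in both comparisons, with log2 fold changes of 1.99 (adjusted p 0.000316) and 2.37 (adjusted p 0.000217) in the authors' deposited tables. Skp2 and Lin37 rose with shBAF250a (1.47 and 1.30), and Cdk2, the kinase partner of cyclin E, rose with shBRD9 (1.38), in the authors' deposited tables. Of 24 other S phase chromatin and checkpoint genes, Slbp, which binds histone messenger RNAs, rose and Casp8ap2 fell in both comparisons, with log2 fold changes of 1.55 and -1.63 with shBAF250a and 1.56 and -1.80 with shBRD9 in the authors' deposited tables.

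Among the CDK inhibitors, Cdkn1c, which encodes p57 and blocks cyclin E and cyclin A kinases, had 1040 and 988 normalized counts with shBAF250a, against 9.52 and 10.1 with shScr, and 11771 and 11518 with shBRD9, against 10.2 and 10.3 with shScr. Its log2 fold change was 6.49 with shBAF250a and 9.71 with shBRD9 in the authors' deposited tables, and the difference of -3.21 had an adjusted p of 0.00152 in the normal test. Cdkn1a, which encodes p21, fell with shBAF250a (-1.93, adjusted p 0.000562) and had a log2 fold change of -1.10 (adjusted p 0.167) with shBRD9 in the authors' deposited tables. Cdkn1c shares 27.2% of its words with an annotated antisense gene, Gm44732, and Tfdp1 21.7% with a pseudogene. Lin37 shares 13.8% and Slbp 12.8% of their words with transcripts of other genes.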

How the data were processed

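RNA-seq of 6 C2C12 libraries (shBAF250a, shBRD9 and shScr, 2 each) was available as 2 comparison tables. Per the submitters' processing notes, HISAT, StringTie, Bowtie, RSEM, DESeq2 and the build mm10 were used, with no role or version. Per the file headers, the authors deposited for each gene a mean normalized count (a signal averaged over 4 libraries after size factors), a log2 fold change, its standard error on the log2 scale, a Wald score, a p-value and an adjusted p-value. The members and lists were chosen with earlier results of these data known.

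The authors' DESeq2 Wald test at an adjusted p below 0.05 was used as deposited. No table holds counts per library, so the count test planned for that case was not run. The difference between knockdowns was tested as the difference of log2 fold changes over the root of the summed squared standard errors. The test was two-sided and Benjamini-Hochberg adjusted over 16311 genes. The summed errors count the shared controls in both comparisons, which tends to make them too large. A prior shrank the log2 fold changes of each comparison, with a variance of 4.69 with shBAF250a and 3.57 with shBRD9. The effect of this unequal shrinkage on the difference was not tested.

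Each mean adds up the reads of 4 libraries, each multiplied by a step of its own, and is printed to 10 significant digits. Reads were searched that give the means of both tables and, through the authors' negative binomial model with its prior, both log2 fold changes within 1e-05. For genes with low means, reads that alone gave both means were also accepted where the log2 fold changes did not match. The search gave 1 solution for each of the 48 members, all within the limit (largest gap 1.22e-07). It also gave 1 for 1541 of 1543 genes of a systematic sample, every 10th tested gene with a mean below 10000. Of these, 1083 with means of 80 or more stand beside the members. In data simulated with the same model, steps and prior as the search, 48 of 48 members were recovered exactly. This tested the search and not whether the model holds for the deposited values. If the counting gave estimated counts, the reads are their rounded values. Reads of 1 group were equal in both tables in 6610 of 6610 low genes, which makes it shScr and a positive log2 fold change higher in the knockdown. Which library is A or B is unknown. Ratios between libraries used a pseudocount of 1. What separates biological duplicates is not stated, so p-values cover the spread of these libraries and no more.

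Every member is given by its role, called ones in full; of other lists the called genes with the largest change, at most 4 per comparison. Coordinates, promoters and transcript words of 31 bases came from RefSeq (GRCm38.p6) and GENCODE M21. Alternatives were another adjustment, thresholds, filters, centring, members sharing under 10% of words, a minimum fold and, chosen after seeing the data, leaving out each library. Python 3.11.15, numpy 2.4.6, pandas 2.3.3, scipy 1.17.1, numba 0.67.0 and matplotlib 3.10.9 were used.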

Additional observations from a re-analysis of the deposited data

Results flagged for a closer look

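E2f2 was called in the test of the difference between the knockdowns, near the threshold. The value of shBAF250a minus shBRD9 was -2.24 on the log2 scale, with an adjusted p of 0.0472 in the two-sided normal test over 16311 genes. It was 1 call among 48 members, against 2.54% of all genes. The call was lost with no filter on low values, with means of 100 or more and with centred log2 fold changes. The 2 shBAF250a libraries were below and the 2 shBRD9 libraries above both shScr libraries. E2f8 showed the same order of groups with a difference of -1.13 that did not pass the same test (adjusted p 0.798).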

How the results depend on the processing

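The members called numbered 10 with shBAF250a, 2 with shBRD9 and 1 in the difference between the knockdowns. Under Bonferroni adjustment all 3 counts were 0, and at an adjusted p below 0.01 they were 3, 2 and 0. The difference also lost its call without a filter on low values (0), with means of 100 or more (0) and with log2 fold changes centred on the median (0). Among members sharing under 10% of their words the counts were 5, 1 and 1. The other settings kept the counts within 1.5 times, and centring gave 9 higher and 2 lower with shBAF250a, against 6 higher and 4 lower as deposited. Leaving out 1 library gave 2 to 13 members with shBAF250a, 1 to 2 with shBRD9 and 0 to 1 in the difference. Of 85 values of single called members under these settings 58 kept their call and 27 lost it, of 54 values with a library left out 25 kept and 29 lost it, and 0 changed sign. The 0 covers called members alone. Among all members, called or not, leaving out 1 library gave the other sign for 0 to 9 with shBAF250a. It did so for 6 to 16 with shBRD9, and for 0 to 20 in the difference. The largest counts with shBRD9 and in the difference came without shBRD9 library 2. The cause of these changes was not tested. No paired analysis was possible because the recovered libraries cannot be matched to the letters A and B of the labels. With 2 libraries a group, no gene was called under 1.02 log2 units with shBAF250a or under 1.29 with shBRD9. The members' differences between the knockdowns had standard errors of 0.66 to 0.98. Smaller changes of members are therefore not shown to be absent.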

Other observations

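Most lists of genes that act with the members were also higher in shBRD9 library 2, at smaller median ratios than the 2.44-fold of the members. Library 2 was above library 1 for 19 of 21 other fork genes, 12 of 14 other licensing and firing genes, 18 of 24 other S phase chromatin and checkpoint genes and 13 of 17 other nucleotide synthesis genes that could be resolved, with median ratios of 1.53-fold, 1.49-fold, 1.46-fold and 1.92-fold. For the Rb, E2F and cyclin D regulators it was 11 of 20, with a median ratio of 1.19-fold and 5 genes at least 2-fold higher in library 1. In the systematic sample it was 560 of 1083 genes, with a median ratio of 1.02-fold. The 4 CDK inhibitors that could be resolved were all lower in library 2, with a median ratio of 0.861. Per kilobase of the longest coding transcript, the members with the highest mean normalized count in shScr were Tk1 (2913), Rrm2 (1518) and Rfc3 (1488), and those with the lowest were Ccne2 (38.1), Orc1 (59.0) and Pola1 (71.8).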
